A study of Drosophila melanogaster with 6 samples.

Results

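The genes described here are 39 splicing factors and RNA-binding regulators of *Drosophila melanogaster*, taken from a table of 13858 genes by matching a list of 40 symbols to the symbols of the table, ignoring case. They cover SR proteins, subunits of the U1, U2 and U4/U6.U5 particles, the Sm ring, hnRNPs and tissue-specific regulators such as *elav*, *mbl*, *TBPH* and *caz*. The match failed for *Sf3b1*, which the table lists as *CG2807*. The listed *SmG* matched *smg*, the unrelated translational repressor Smaug, whereas the Sm protein G gene is listed as *SNRPG*. Counts are therefore given for the 39 genes matched by symbol, while role groups and patterns across libraries use the 40 genes by identity, with *CG2807* and *SNRPG* included and *smg* left out.

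RNA was sequenced from whole female L3 larvae of 2 groups, fed on grape agar with yeast. In 3 knockdown libraries, replicates 1, 2 and 3, the ubiquitous driver *Act5C*-GAL4 activated a UAS-*Dctn1*-RNAi transgene. The 3 control libraries, replicates 2, 3 and 4, came from larvae with the driver only, so that both groups carried *Act5C*-GAL4. A library pooled 12 to 15 larvae of about 96 h, counted from hatching in the sample labels and from egg laying in the study's methods. The transgene is a single RNAi line, so effects of that line on other transcripts cannot be told apart from the loss of *Dctn1*. *Dctn1* encodes the largest subunit of dynactin, the cofactor of the motor dynein, and the study reported changed splicing in these larvae. The question addressed here is whether the levels of splicing regulators differed too. Splicing itself was not analysed here, since a gene's value adds up its isoforms.

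Introns are removed by the spliceosome. The U1 particle and U2AF mark the ends of an intron, U2 binds the branch point, and the U4/U6.U5 particle joins before catalysis. SR proteins and hnRNPs bind pre-mRNA and shift the choice of splice sites in ways that depend on their amounts, and families such as ELAV, Muscleblind and the KH domain proteins do so in particular tissues. TBPH is the fly relative of the human protein TDP-43, whose gene is mutated in forms of amyotrophic lateral sclerosis, and Caz is an RNA-binding protein of the nucleus.

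None of the 39 genes differed between knockdown and control larvae at an adjusted p under 0.05 by limma, against 6.71% of the 9978 genes tested (5.06% higher and 1.65% lower in knockdown larvae). The count of members that also changed over 2-fold was likewise 0, against 2.91%. At an unadjusted p under 0.05 there were 4 members, *Rm62*, *tra2*, *Rbp9* and *ps*, all with higher knockdown values, beside 20.9% of all genes in that direction and 25.3% in either direction. The log2 fold changes of the members, knockdown minus control on the log2(FPKM + 0.1) scale, ran from -0.51 for *Hrb87F* to 0.42 for *Rm62*, and 30 of 39 lay within 0.2 of 0. Adjusted p-values by limma ran from 0.0758 to 0.998. The 40 genes by identity also gave a count of 0.

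The precision of these differences was high enough to bound most of them. The 95% interval of the log2 fold change lay within 1 of 0, that is within 2-fold, for 37 of 39 members, the exceptions being *Hrb87F* and *mub*, and within 0.5 for 26. The median standard error was 0.14 on the log2 scale, with a range of 0.12 to 0.37, compared with 0.16 over all tested genes. With its own standard error, a member needed a log2 fold change of 0.59 at the median to be called, from 0.48 for *Rm62* to 1.73 for *mub*. In this fit, with all libraries weighted equally, smaller differences were not called. With estimated sample weights *Rm62*, *Rbp9* and *tra2* were called at log2 fold changes of 0.43, 0.39 and 0.35 (adjusted p = 0.0151, 0.0455 and 0.0346 by limma). In that fit 1764 of the 9978 tested genes were called, compared with 670 at equal weights.

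The direction of small differences depended on how libraries were scaled. As deposited, the median log2 fold change was 0.03 over the members and 0.16 over all tested genes, of which 74.2% lay above 0. Dividing each library by its median-of-ratios factor, the median over genes of the ratio to the gene's geometric mean, moved all differences down by about the same amount, to a median of -0.15 over the members and -0.01 over all genes. The members were thus on the lower side of the median of all genes under both scalings. As deposited, 24 of 39 members lay above 0, but only 8 did after scaling, when 47.5% of all genes did, and the sign of 16 members changed with this common shift. After scaling, 0 members passed the adjusted threshold, against 3.22% of all genes, and 3 had an unadjusted p under 0.05, namely *Hrb87F*, *Prp8* and *SmF*, beside 19.6%.

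*Dctn1* itself, listed as *DCTN1-p150*, had FPKM values of 15.3, 15.2 and 12.5 in controls against 7.33, 7.96 and 6.85 under knockdown. It fell by 0.94 on the log2 scale (SE 0.13, adjusted p = 0.00737 by limma) and was lower in each knockdown library than in any control. The libraries carry FPKM values without read counts, so their depth is unknown. Neuronal, muscle, fat body and midgut markers were present in every library, while of 8 germline and 8 testis markers only 1 each reached the minimum level for a test. In whole larvae, fewer cells of a type and less RNA per cell cannot be told apart.

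Most members, but not *Prp31*, *bru1*, *smg*, *tra2* and *elav*, were expressed above the median of all tested genes. The members' mean FPKM over the 6 libraries ran from 7.14 for *Prp31* to 384 for *Rm62*. Their median was 40.3, compared with 10.9 for all tested genes. No member was at 0 in any library, and all 39 were tested. The hnRNP genes *Hrb27C* and *sqd* followed *Rm62* at the top of the range, and *Prp31*, *bru1*, *smg* and *tra2* were at the bottom.

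**Figure D1:**
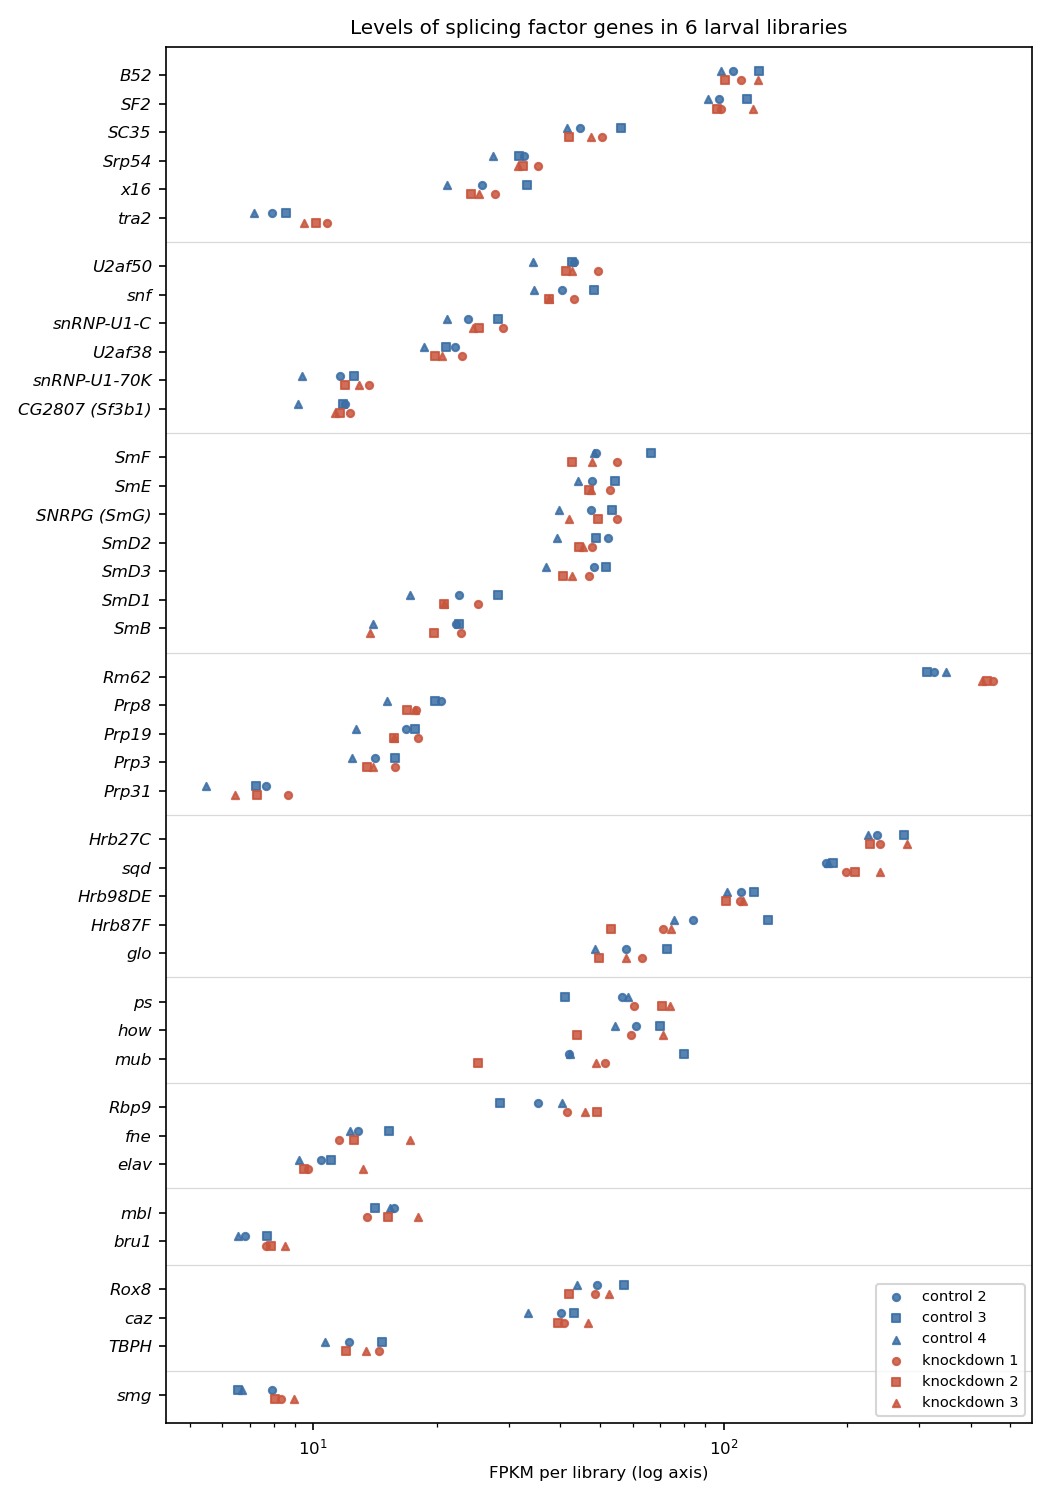
FPKM (log axis) of each gene in the 3 control (blue) and 3 knockdown (red) libraries, grouped by role, with the symbol shape giving the replicate. Values run from 5.47 to 453, and the colours are mixed in most genes, with the groups apart for *Rm62*, *tra2*, *sqd*, *ps*, *Rbp9*, *smg* and *Hrb87F*.

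The SR proteins bind exonic enhancers and recruit U1 and U2AF. None of the 6 SR and SR-like genes passed the test, and their median log2 fold change was 0.04 (-0.14 after scaling). *B52*, which encodes the SRp55 homologue and was the most abundant of them, had 105, 122 and 98.7 FPKM in control replicates 2, 3 and 4 and 110, 101 and 121 FPKM in knockdown replicates 1, 2 and 3. The groups overlapped fully, and the log2 fold change of *B52* was 0.03 (adjusted p = 0.914 by limma). *SF2*, the fly SRSF1, ran at a like level, with log2 fold change 0.04, while *SC35*, *x16* and *Srp54* had lower levels and log2 fold changes of -0.02, -0.03 and 0.12.

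The exception among them was *tra2*, whose product acts with Tra on the female exon of *doublesex* and on other targets. *tra2* had 7.93, 8.56 and 7.16 FPKM in control larvae and 10.8, 10.2 and 9.49 FPKM in knockdown larvae. Every knockdown library was above every control library. Its log2 fold change was 0.36 (SE 0.12, 95% interval 0.08 to 0.65), and its adjusted p of 0.122 by limma missed the threshold. After median-of-ratios scaling the log2 fold change of *tra2* was 0.18 (95% interval -0.004 to 0.37, adjusted p = 0.266 by limma). *tra2* was then the only member with all knockdown values above all control values, against 13.5% of all tested genes. Its locus overlaps *Blos1* on the other strand. Whether reads were counted by strand is not given in the sources used here, so reads of these 2 genes may not be fully separated.

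The genes of early intron recognition also gave a count of 0 of 6, with a median log2 fold change of 0.11 (-0.07 after scaling). *U2af50*, the large U2AF subunit that binds the polypyrimidine tract, had 43.2, 42.8 and 34.4 FPKM in control larvae and 49.5, 41.4 and 42.7 FPKM in knockdown larvae. These ranges overlapped, with a log2 fold change of 0.15 and a 95% interval of -0.17 to 0.48. Its partner *U2af38*, which reads the 3′ splice site, had a log2 fold change of 0.04. The U1 genes *snRNP-U1-70K* and *snRNP-U1-C* had 0.21 and 0.11, *snf*, which in flies serves both U1 and U2, had -0.05, and *CG2807*, the SF3B1 subunit of U2, had 0.10. All of these intervals included 0.

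The Sm proteins form the ring on which the U1, U2, U4 and U5 particles are built. The 7 genes had log2 fold changes from -0.16 to 0.06, the narrowest spread of the groups with more than 3 genes, and 0 passed. *SmF*, the most abundant, had 48.9, 66.7 and 48.3 FPKM in control larvae and 55.0, 42.8 and 47.7 FPKM in knockdown larvae. The high value was control replicate 3 and the low one knockdown replicate 2, and the groups overlapped (log2 fold change -0.16, SE 0.17, 95% interval -0.55 to 0.22, adjusted p = 0.563 by limma). The order of levels within the ring was partly fixed. *SmB* was the lowest and *SmD1* the second lowest of the 7 in each of the 6 libraries, with mean FPKM of 19.2 and 22.5, whereas *SmD2*, *SmD3*, *SmE*, *SmF* and *SNRPG*, with mean FPKM between 44.6 and 51.6, changed places from library to library.

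Of the genes of the U4/U6.U5 particle and later assembly, *Prp3*, *Prp8*, *Prp19* and *Prp31* had log2 fold changes between -0.07 and 0.14, and none passed. *Prp8* encodes the U5 protein at the catalytic centre, *Prp3* and *Prp31* belong to U4/U6, and *Prp19* to the complex that stabilises the active spliceosome. *Prp8* had 20.5, 19.8 and 15.1 FPKM in control larvae and 17.8, 16.9 and 17.7 FPKM in knockdown larvae, with the knockdown values inside the control range.

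*Rm62*, the fly relative of the DEAD-box helicase p68, which remodels U1 at the 5′ splice site and also acts in RNA interference and transcription, was the most abundant member and the one nearest to the threshold. *Rm62* had 326, 314 and 348 FPKM in control larvae and 453, 438 and 427 FPKM in knockdown larvae. As deposited, the groups did not overlap, as in 28.8% of all tested genes with higher knockdown values. The gap between the groups exceeded the spread within either group. The knockdown mean was 133% of the control mean, and the log2 fold change of *Rm62* was 0.42 (SE 0.12, 95% interval 0.15 to 0.69, adjusted p = 0.0758 by limma). After median-of-ratios scaling the log2 fold change was 0.24 (adjusted p = 0.390 by limma) and the groups overlapped. The sum of the 5 genes of this group followed *Rm62*, with 374 to 394 FPKM in control and 481 to 513 FPKM in knockdown larvae.

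hnRNPs often act against SR proteins at splice sites and accompany mRNA to the cytoplasm. None of the 5 hnRNP genes passed, and their median log2 fold change was -0.03 (-0.21 after scaling). *Hrb27C*, also called Hrp48 and known for the localisation of *oskar* and *gurken* mRNA, had 237, 276 and 225 FPKM in control larvae and 241, 228 and 280 FPKM in knockdown larvae. The groups covered nearly the same range (log2 fold change 0.02, 95% interval -0.31 to 0.35). *Hrb98DE* and *glo* had log2 fold changes of -0.03 and -0.06.

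*Hrb87F*, one of the A/B-type hnRNPs of the fly and a component of the omega speckles, had the lowest log2 fold change of all members. *Hrb87F* had 84.1, 129 and 75.7 FPKM in control replicates 2, 3 and 4 and 71.0, 53.1 and 74.6 FPKM in knockdown replicates 1, 2 and 3. The groups did not overlap, but knockdown replicate 3 and control replicate 4 were nearly equal, and control replicate 3 was far above the other controls. The log2 fold change of *Hrb87F* was -0.51 (SE 0.22, adjusted p = 0.201 by limma). It was -0.28 without control replicate 3, and -0.72 (adjusted p = 0.0473 by limma) with the replicate number as a block. Only replicates 2 and 3 of each group inform the blocked fit, so control replicate 4, the lowest control, does not count there. The shared numbers do not pair the libraries. *Hrb98DE*, the A/B-type relative of *Hrb87F*, in contrast had overlapping groups, with 110, 119 and 102 FPKM in control and 110, 102 and 112 FPKM in knockdown larvae.

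*sqd*, or Squid, an hnRNP of *gurken* mRNA localisation, is given after its values had been seen, because its groups did not overlap. It had 178, 185 and 180 FPKM in control and 199, 209 and 241 FPKM in knockdown larvae. The knockdown values were more spread than the controls, which lay close together. The log2 fold change of *sqd* was 0.25 (95% interval -0.04 to 0.54, adjusted p = 0.255 by limma), and 0.07 after scaling.

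The 3 KH domain regulators, which bind short RNA motifs, had log2 fold changes of either sign, and none passed. *ps*, or Pasilla, the fly Nova relative, had 56.6, 41.1 and 58.6 FPKM in control and 60.5, 70.9 and 74.1 FPKM in knockdown larvae. The lowest knockdown value was just above the highest control value. The log2 fold change of *ps* was 0.41 (SE 0.17, 95% interval 0.02 to 0.79, adjusted p = 0.178 by limma) and 0.23 after scaling.

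*mub*, a poly(C)-binding protein with KH domains, had 42.0, 80.0 and 42.2 FPKM in control and 51.4, 25.2 and 49.0 FPKM in knockdown larvae. Control replicate 3 was well above the other controls and knockdown replicate 2 far below the other knockdown libraries. Thus the groups overlapped and *mub* had the largest standard error of the members, 0.37 (log2 fold change -0.39, 95% interval -1.29 to 0.52, adjusted p = 0.553 by limma). Without control replicate 3 the log2 fold change of *mub* was -0.08, and without knockdown replicate 2 it was -0.06. After median-of-ratios scaling the log2 fold change of *mub* was -0.57 (adjusted p = 0.409 by limma). With the replicate number as a block it was -0.72 (adjusted p = 0.0452 by limma). Only replicates 2 and 3 of each group inform that fit, including the outlying control replicate 3 and knockdown replicate 2. The shared numbers do not pair the libraries. *how*, the fly Quaking relative, which acts in muscle, tendon and glia, had 61.1, 70.1 and 54.3 FPKM in control and 59.5, 44.0 and 71.2 FPKM in knockdown larvae. The knockdown libraries of *how* spanned the whole control range (log2 fold change -0.11, 95% interval -0.55 to 0.34). 

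**Figure D2:**
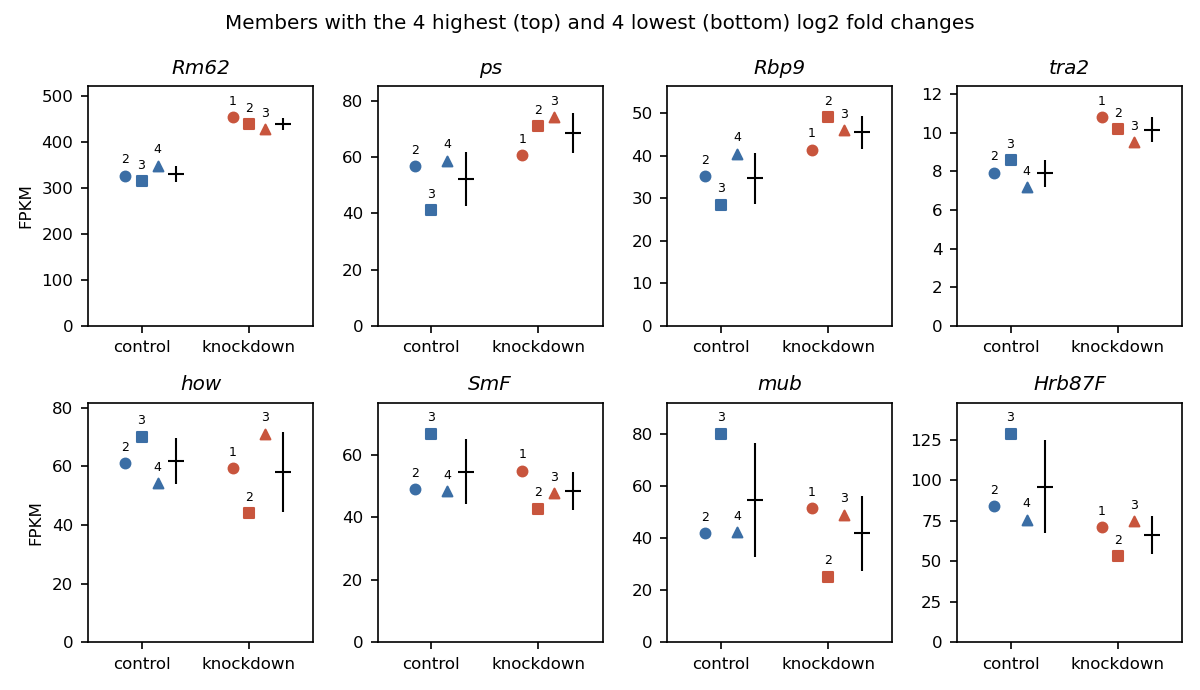
FPKM (linear axes from 0) of the members with the 4 highest (top) and 4 lowest (bottom) log2 fold changes. Points are libraries with their replicate numbers, crosses with bars are group means ± SD (n = 3); control replicate 3 is the highest control for *Hrb87F*, *mub*, *SmF* and *how* and the lowest for *Rm62*, *ps* and *Rbp9*.

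The ELAV family has a founding member, *elav*, that is used as a marker of neurons, and its relatives *fne* and *Rbp9* are expressed mainly in neurons too. None of the 3 passed. *elav* had 10.4, 11.1 and 9.23 FPKM in control and 9.70, 9.50 and 13.2 FPKM in knockdown larvae, and *fne* had 12.9, 15.3 and 12.3 FPKM in control and 11.5, 12.5 and 17.2 FPKM in knockdown larvae. For both, knockdown replicate 3 was the highest library and the groups overlapped, with log2 fold changes of 0.06 (95% interval -0.30 to 0.43) and 0.01 (95% interval -0.39 to 0.41).

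*Rbp9* had 35.2, 28.5 and 40.5 FPKM in control and 41.5, 49.1 and 46.0 FPKM in knockdown larvae. The groups did not overlap, though the lowest knockdown and highest control values lay close together. The log2 fold change of *Rbp9* was 0.40 (SE 0.15, 95% interval 0.05 to 0.75, adjusted p = 0.155 by limma) and 0.22 after scaling, when its groups overlapped. *Rbp9* overlaps *Ts* on the other strand. As deposited, the summed FPKM of 12 neuronal markers was 69.4 to 84.2 in control and 85.7 to 105 in knockdown larvae. That of 6 glial markers was 51.9 to 56.9 and 67.9 to 69.9. The size of these differences depended on the scaling of libraries. The median log2 fold changes of the neuronal and glial markers were 0.36 and 0.32 as deposited, beside 0.16 over all tested genes. After scaling they were 0.19 and 0.14, beside -0.01. None of the defining markers was at 0 in any library. Their part in the value of *Rbp9* was not tested.

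*mbl* and *bru1* encode the fly relatives of the MBNL and CELF proteins, regulators of muscle splicing that are known from myotonic dystrophy. *mbl* had 15.7, 14.1 and 15.4 FPKM in control and 13.5, 15.2 and 18.0 FPKM in knockdown larvae, which overlapped (log2 fold change 0.04, adjusted p = 0.891 by limma). *bru1* had a log2 fold change of 0.19 (0.01 after scaling). The summed FPKM of 12 body wall muscle markers overlapped between groups, with 10914 to 18259 in control and 14578 to 19869.8 in knockdown larvae, and 0 of the 12 passed.

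Neither *TBPH* nor *caz* differed beyond the spread between libraries. *TBPH* had 12.2, 14.7 and 10.7 FPKM in control and 14.4, 12.0 and 13.5 FPKM in knockdown larvae. All knockdown values fell inside the control range, and the log2 fold change was 0.09 (SE 0.15, 95% interval -0.25 to 0.43, adjusted p = 0.728 by limma). *caz* had 40.1, 43.3 and 33.4 FPKM in control and 40.8, 39.4 and 46.8 FPKM in knockdown larvae. Its groups overlapped as well, with a log2 fold change of 0.12 (SE 0.14, 95% interval -0.20 to 0.45, adjusted p = 0.603 by limma). Both intervals leave out a 2-fold change in either direction, and after scaling the log2 fold changes were -0.09 and -0.06.

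*Rox8*, the relative of TIA1, a U1 cofactor found in stress granules, had 49.1, 57.1 and 43.9 FPKM in control and 48.6, 41.9 and 52.6 FPKM in knockdown larvae. The groups of *Rox8* overlapped (log2 fold change -0.07, adjusted p = 0.811 by limma). *smg*, which is no splicing factor and entered through its symbol, had 7.91, 6.56 and 6.71 FPKM in control and 8.36, 8.07 and 8.95 FPKM in knockdown larvae. Its groups did not overlap (log2 fold change 0.26, adjusted p = 0.245 by limma).

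In total, the values of 7 of 39 members (17.9%) did not overlap between groups, against 33.5% of all tested genes. Higher in all knockdown libraries were *tra2*, *Rm62*, *sqd*, *ps*, *Rbp9* and *smg*, beside 28.8% of all genes, and lower was *Hrb87F*, beside 4.66%. After median-of-ratios scaling 14 of 39 did not overlap, against 26.5% of all genes. Only *tra2* was then higher, 1 of 39 members, against 13.5% of all genes. Lower were 13 of 39 members, a larger share than the 13.0% of all genes. These were *Hrb87F*, *Hrb98DE* and *glo* among the hnRNPs, *SmD2*, *SmD3*, *SmE* and *SmF* of the Sm ring, *Prp3*, *Prp8*, *snf*, *U2af38*, *x16* and *Srp54*.

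The variation among libraries of a group was shared by most of these genes. Control replicate 4 had the lowest control value in 34 of 40 genes, compared with 61.6% of all tested genes, and lay below the gene's own mean over the 6 libraries in 38. Control replicate 3 had the highest control value in 29 of 40 genes, compared with 47.1% of all tested genes. The median deviation from the gene's own mean was 0.15 in control replicate 3 and -0.19 in control replicate 4 on the log2 scale, and 0.11, -0.08 and 0.02 in knockdown replicates 1, 2 and 3. The 2 outer controls thus lay on either side of all knockdown medians. The scaling factor was also lowest in control replicate 4, at 0.854, with 0.979 and 0.992 in the other controls and 1.03 to 1.12 in knockdown libraries. The 40 genes together had 2006 to 2395 FPKM in control and 2179 to 2418 FPKM in knockdown larvae, between 0.249% and 0.331% of the table's sum.

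Some genes departed from that pattern. *Rm62*, *ps*, *Rbp9* and *mbl* were lowest among the controls in replicate 3, where most members were highest. In *Hrb87F* and *mub*, control replicate 3 was the highest control, as in most members, but its height far exceeded that in the other genes. Knockdown replicate 2 was the lowest library for both genes, by a wider margin in *mub*. The standard errors of *Hrb87F* and *mub*, 0.22 and 0.37, were above the members' median of 0.14.

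**Figure D3:**
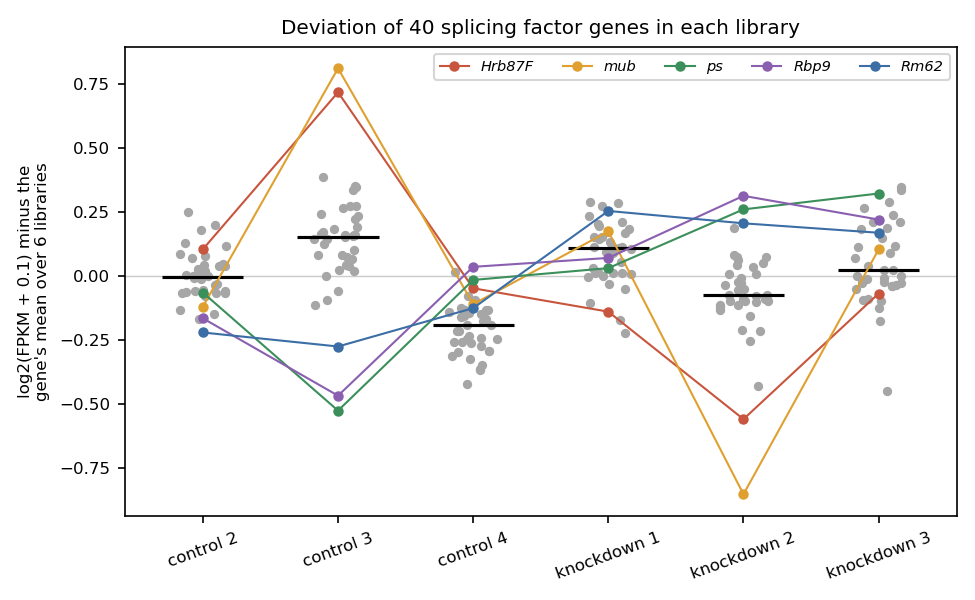
Deviation of each of the 40 genes from its own mean over the 6 libraries (log2(FPKM + 0.1), vertical axis) by library, with the median as a bar. Medians are 0.15 in control 3 and -0.19 in control 4; *Hrb87F* and *mub* peak in control 3 and dip in knockdown 2, while *ps*, *Rbp9* and *Rm62* are low in control 3.

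Ratios of related members within a library, formed from FPKM without a pseudocount, do not depend on how libraries are scaled. Of all 780 pairs among the 40 genes, the ratios of 126 (16.2%) did not overlap between groups. Of 12 pairs of related genes chosen after the values had been seen, 3 did not overlap. *Hrb87F* to *Hrb98DE* was 0.764, 1.08 and 0.743 in control and 0.646, 0.522 and 0.669 in knockdown larvae. *tra2* to *B52* was 0.0753, 0.0701 and 0.0726 in control and 0.0979, 0.101 and 0.0784 in knockdown larvae. The ratio of the small to the large U2AF subunit, *U2af38* to *U2af50*, was 0.512, 0.493 and 0.542 in control and 0.464, 0.477 and 0.482 in knockdown larvae, the smallest of these shifts. The ratios of *elav* to *fne*, *TBPH* to *caz* and *SmD3* to *SmD2* overlapped.

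Some members are neighbours in the genome. The file names no build, and positions are those of the BDGP6.54 annotation. *Hrb87F* lies on chromosome arm 3R from 13656846 to 13660531 on the minus strand and *B52* on the same arm from 13661311 to 13666891 on the plus strand, so that their 5′ ends face each other across 779 bases. Their log2 fold changes were -0.51 and 0.03. *x16* and *Hrb27C* on 2L face each other across 493 bases, with log2 fold changes of -0.03 and 0.02. *sqd*, 10541 bases from *Hrb87F* on 3R, had 0.25. *Rm62* (3R from 6000426 to 6008579) overlaps no other annotated gene, and neither do *ps*, *sqd* and *Hrb87F*. Altogether 20 of the 40 loci overlap another annotated gene, 17 of them a gene on the other strand.

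Many of these genes have several transcripts in the table, which gene-level values add up. The median was 4 listed transcripts compared with 2 for all tested genes, and 15 of 39 members had at least 1 transcript that the sequencing centre had added, compared with 20.3% of all tested genes. *ps* had 46 listed transcripts, of which 28 were added, and *mub* and *mbl* had 22 each. A total of 12 members, among them *Prp8*, *snf* and *SmB*, had a single transcript.

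Further genes of the splicing pathway and of steps next to it were taken as 4 lists. Lists of 35 SR and hnRNP relatives, 43 other spliceosomal genes, 11 genes of SMN and snRNP assembly and 26 genes of the exon junction complex, export and decay were all tested, and 0 of these genes passed. There were 11 with an unadjusted p under 0.05, against 25.3% of all tested genes, where 6.71% passed the adjusted threshold. Median log2 fold changes were 0.05, 0.11, 0.26 and 0.09, and over the 4 lists together 0.11 (-0.07 after scaling). The median of SMN and snRNP assembly was above the 0.16 of all tested genes, and the other medians were below it. The largest difference was that of *Tgs1*, the enzyme that hypermethylates the cap of snRNAs, with 3.37, 3.34 and 2.70 FPKM in control and 4.85, 4.21 and 4.11 FPKM in knockdown larvae. Its groups did not overlap (log2 fold change 0.48, adjusted p = 0.107 by limma). In the other lists the largest differences were those of *obe* among the spliceosomal genes, with 3.78, 3.66 and 2.84 FPKM in control and 4.82, 4.83 and 4.39 FPKM in knockdown larvae (log2 fold change 0.45, adjusted p = 0.126 by limma), of *Syp*, an hnRNP relative, and of *sbr*, the mRNA export receptor. The groups of *obe* did not overlap. *Syp* and *sbr* had log2 fold changes of -0.41 and 0.33 (adjusted p = 0.276 and 0.112 by limma).

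Markers of cell types gave 6 calls among the 63 tested genes of 9 lists, beside 6.71% of all tested genes. None was neuronal, muscular or of dividing cells. The glial transporter gene *Eaat1* rose by 0.70 on the log2 scale (adjusted p = 0.0184 by limma), as the only call of 6 glial genes. *Lsp1beta* was the only one called higher of 7 fat body genes and *Sr-CI* of 6 haemocyte genes, in lists with median log2 fold changes of -0.09 and 0.19, and *mia* was the only testis gene tested. After median-of-ratios scaling these 4 higher calls were lost, with adjusted p-values by limma of 0.101 for *Eaat1*, 0.179 for *Lsp1beta*, 0.140 for *Sr-CI* and 0.0844 for *mia*. Of 5 midgut genes, *betaTry* and *Amy-p* were called lower under both scalings, at -2.20 and -1.98 as deposited, where the list's median was -0.35. *Jon65Aiii*, *alphaTry* and *LManI*, at -0.03, -0.10 and -0.35, were not called. The sum of the 13 markers of dividing cells overlapped between groups, with 114 to 160.3 FPKM in control and 136 to 159 FPKM in knockdown larvae, and control replicate 4 was the lowest library there too. The part of cell composition in the members' values was not tested.

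**Figure D4:**
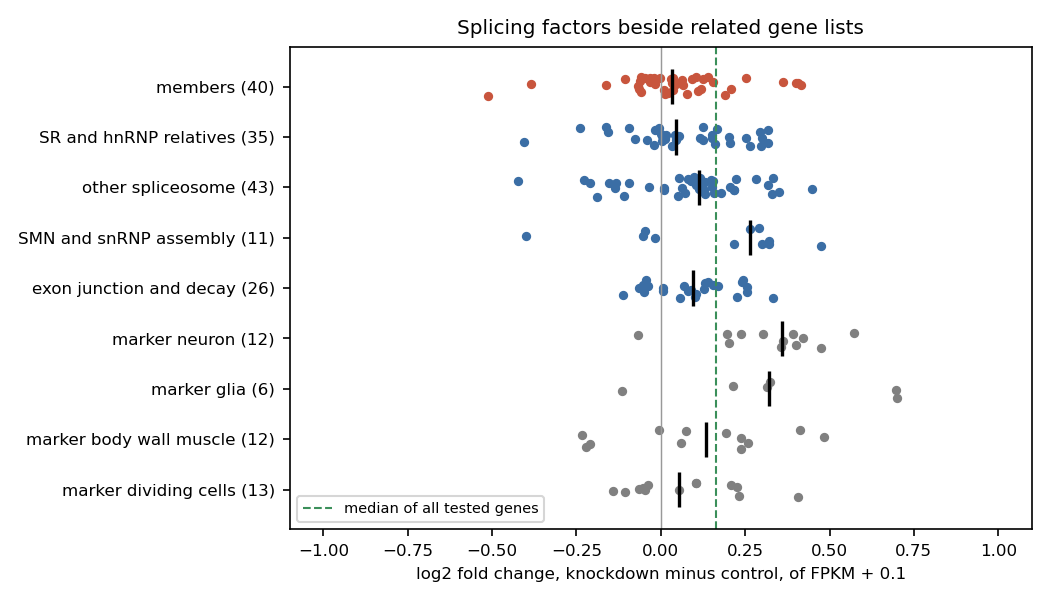
Log2 fold change (horizontal axis) of each tested gene in the member list by identity, 4 lists of the splicing pathway and 4 marker lists, with numbers of genes in parentheses. Black bars are medians and the dashed line is the median of all tested genes at 0.16. With FPKM as deposited, members have a median of 0.03 and neuronal markers 0.36.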

How the data were processed

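RNA-seq of whole female larvae gave 3 *Dctn1* knockdown and 3 driver only control libraries. The authors used SOAPnuke to filter reads, HISAT2 for mapping and RSEM for quantification, and deposited 1 FPKM value per gene and library, rounded to 2 decimals, with no read counts. Versions and the genome build are not given in the sources used here. Depth is thus unknown, and precision rests on the spread between libraries, each a pool of larvae.

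Linear models of log2(FPKM + 0.1), with knockdown against control as the single term and a trended, robust variance, were fitted by limma (version 3.58.1, R version 4.3.3). Genes whose mean FPKM reached 0.5 were kept, 9978 in all. P-values were adjusted by Benjamini-Hochberg over these genes. The fit was tested on simulated data. Tables and plots were made with Python version 3.11.15, pandas version 2.3.3, NumPy version 2.4.6 and Matplotlib version 3.10.9.

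The members and the lists beside them were chosen with earlier results of these data known. Values per library are given for the 4 highest and 4 lowest log2 fold changes, the most abundant member of each role group, the ELAV family, *TBPH* and *caz*. *Hrb98DE*, *Prp8*, *sqd* and *smg* were added after their values had been seen. Genes of other lists are named where called or largest in their list. Alternatives were pseudocounts of 1 and 0.01, filters at a mean FPKM of 5 or none, scaling by median-of-ratios factors, to TPM or by quantiles, a plain variance, sample weights, a replicate block and single libraries left out.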

Additional observations from a re-analysis of the deposited data

How the results depend on the processing

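The count of 0 of 39 members at an adjusted p under 0.05 by limma held under other pseudocounts, filters, variance models, median-of-ratios scaling, quantile normalization and with each library left out in turn. It became 3 (*Rm62*, *Rbp9* and *tra2*) with values rescaled to TPM, which raised the median of all genes to 0.28, and the same 3 with estimated sample weights, which gave control replicate 2 a weight of 4.68 and control replicates 3 and 4 weights of 0.538 and 0.341. The labels share only the replicate numbers 2 and 3 between groups (same-numbered correlations 0.402 and 0.137), which does not pair the libraries. With the replicate block, only those 4 libraries inform the difference. The count of members then became 2 (*Hrb87F* and *mub*), against 640 of the 9978 tested genes. The members' median log2 fold change, 0.03, became -0.10. That median was -0.15 under median-of-ratios scaling and -0.04 to 0.12 without single libraries. Members over 2-fold and called were 0 throughout.

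Signs changed in 16 members under median-of-ratios scaling, 12 under TPM, 9 under quantile normalization, 4 with sample weights and 11 with the replicate block. They changed in up to 11 members without single libraries, and in 0 under other pseudocounts, filters and variance. Over all settings *Hrb87F* ranged from -0.72 (replicate block) to -0.28 (without control replicate 3), *mub* from -0.72 (replicate block) to -0.06 (without knockdown replicate 2), *Rm62* from 0.24 to 0.53 (adjusted p 0.0151 to 0.390), *TBPH* from -0.09 to 0.21 and *caz* from -0.06 to 0.24 on the log2 scale. The 670 genes called among all 9978 became 321 under median-of-ratios scaling, 1929 under TPM and 315 under quantile normalization. They became 1764 with sample weights and 640 with the replicate block. When single libraries were left out, they became 265 (without control replicate 2 or knockdown replicate 2) to 457 (without control replicate 3). Calls among the other splicing genes, 0, became 9 under TPM, 2 with sample weights and 1 with the replicate block. The 6 marker calls became 2 under median-of-ratios scaling, 12 under TPM, 3 under quantile normalization, 14 with sample weights and 2 (without control replicate 2 or knockdown replicates 1 or 2) to 6 when single libraries were left out. The causes were not tested. Without read counts, the depth behind low values is unknown, and for FPKM as deposited with equal weights the lowest log2 difference at which a member would be called was 0.48.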
